A study of Homo sapiens with 12 samples.

Results

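The 10 genes described here are the 5 subunits of the transcription factor NF-kappa-B (NFKB1, NFKB2, RELA, RELB and REL), 4 of its inhibitors (NFKBIA, NFKBIB, NFKBIE and TNFAIP3) and ICAM1, an adhesion molecule whose gene NF-kappa-B switches on. The set is defined by name and by no threshold on values, but it was drawn up with earlier results of these data known, and its members were matched to the gene symbols of the deposited expression table. All 10 were found among the 36433 symbols of the table, and all 10 were among the 13750 genes that reached 1 TPM in at least 3 libraries and were tested. TPM is an abundance that divides a transcript's reads by its length and scales each library to the same total.

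The RNA came from HMEC-1 cells, an immortalised endothelial line derived from small vessels of human skin, grown in EBM-2 medium with EGM-2 supplements. There were 4 groups of 3 libraries, numbered 2, 3 and 4 in each group: cells given a miR-126 mimic, a miR-143 mimic, a miR-150 mimic, or a scrambled RNA without a target, which is the control. A mimic is a synthetic RNA that supplies extra copies of a microRNA. Every group, the control included, received RNA at 50 nM with Lipofectamine RNAiMAX and was collected after 48 h, so there were no untransfected cells, and no agent that activates NF-kappa-B is named in the labels. The title of the study concerns abnormal vessel growth in the retina, whereas the cells are a skin-derived line. The labels do not say whether the libraries of a group came from separate cultures, so each p-value reflects how far these libraries spread, and that spread may be technical.

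In resting cells NF-kappa-B dimers are held in the cytoplasm by the I-kappa-B proteins that NFKBIA, NFKBIB and NFKBIE encode. Cytokines and sensors of foreign RNA activate a kinase complex that marks these inhibitors for destruction, the dimers enter the nucleus, and among the genes they switch on are NFKBIA and TNFAIP3, which close the signal down again, NFKB2 and RELB, and ICAM1. In endothelium ICAM1 is a protein by which leukocytes adhere to the vessel wall, and its rise is a standard sign of activation by inflammatory cytokines.

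Stretches upstream of RefSeq starts of the members are shown because the results turn on genes that NF-kappa-B is known to act on. They come from RefSeq promoters on GRCh38.p14, which run from 250 bases before to 50 after a gene's start. Both strands were searched for the 9 bases GGAAATTCC, chosen after the ICAM1 promoter had been viewed, and for the NF-kappa-B consensus, which is broader and overlaps it. The capitals mark the match.
ICAM1, chr19:10270925-10270951, plus strand: ctttagcttGGAAATTCCggagctgaa
NFKBIA, chr14:35404812-35404839, minus strand: gactggcttGGAAATTCCCcgagcctga
TNFAIP3, chr6:137867183-137867222, plus strand: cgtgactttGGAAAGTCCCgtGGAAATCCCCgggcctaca
NFKB2, chr10:102394462-102394490, plus strand: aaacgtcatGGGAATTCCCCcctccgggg
NFKB1, chr4:102501301-102501328, plus strand: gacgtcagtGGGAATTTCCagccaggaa
REL, chr2:60881518-60881546, plus strand: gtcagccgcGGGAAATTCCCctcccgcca
The match shown ended 178 bases before the start in ICAM1, 72 in NFKBIA, 46 in TNFAIP3, 97 in NFKB2, 40 in NFKB1 and 37 in REL. NFKB2 held further matches that are not printed, 69 bases before the same start and 167 and 12 before another. NFKBIB, also not printed, held both motifs 18 bases before a start. All these starts are those of RefSeq, which can differ from the GENCODE 29 gene spans given below. By those spans the printed matches of ICAM1, NFKB2, TNFAIP3 and REL lie inside the gene. Besides ICAM1, where the match was known when they were chosen, the 9 bases were found in promoters of NFKBIA, NFKB1, REL and NFKBIB. They were in 162 of all 35116 promoters (0.461%). The consensus was found in NFKB1, NFKB2, REL, NFKBIA, NFKBIB and TNFAIP3, and in 3956 of all promoters (11.3%). Both shares count single promoters, whereas members were counted by gene, with up to 3 promoters each. RELA had neither in its 2 promoters, and RELB and NFKBIE had no entry. A match describes the letters in this window and was not tested for binding.

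The mature microRNAs are shown with their seed, bases 2 to 8, in capitals (RefSeq, GRCh38.p14). The labels do not give the arm, and the arms shown are the ones known to guide silencing.
hsa-miR-126-3p: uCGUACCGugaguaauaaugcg
hsa-miR-143-3p: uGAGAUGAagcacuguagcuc
hsa-miR-150-5p had no entry.
The site that pairs with the miR-126 seed, CGGTACG, was in the 3' UTR of 37 of 12425 tested genes (0.298%) and of 0 of the 10 members. The site for the miR-143 seed, TCATCTC, was in 1794 genes (14.4%) and in 3 members, REL, RELA and TNFAIP3, taking for each gene the longest 3' UTR in GENCODE 29. These sites are shown, on GRCh38, because they are the matches found between a member and the seeds of miR-126 and miR-143. Sites for miR-150 were not searched.
REL, chr2:60923740-60923763, plus strand: attccaagccaccaTCATCTCttc
REL, chr2:60923893-60923916, plus strand: cattcattggcttcTCATCTCact
RELA, chr11:65655434-65655457, minus strand: cagaatctctgctcTCATCTCtca
TNFAIP3, chr6:137877222-137877245, plus strand: gaccatggcacaacTCATCTCatc
The REL sites lie in REL-201, which held most of the REL signal, whereas the sites of RELA and TNFAIP3 are absent from the most abundant transcripts of these genes, RELA-202 and TNFAIP3-201. NFKBIA and ICAM1 hold no site for either seed. None of the 3 members with a site passed the test in the miR-143 mimic against the control, as described below.

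Between 12299 and 13564 genes reached 1 TPM in a library, and read totals are not in a TPM table, so depth is unknown and precision rests on the spread between libraries. The endothelial identity of the cells was checked with 14 markers, all of which were above 1 TPM in each of the 12 libraries, with summed levels of 2325 to 3226 TPM in the control, 1788 to 2553 with miR-126, 2325 to 3263 with miR-143 and 2045 to 2962 with miR-150. The sum was lower with miR-126 than in the control of the same number in all 3 numbers. Of the fibroblast and pericyte markers, DCN, LUM and PDGFRA stayed under 1 TPM in every library, and the 10 markers summed to 54.6 to 137 TPM in the control, 56.8 to 78.6 with miR-126, 44.2 to 64.5 with miR-143 and 40.2 to 52.00 with miR-150. That sum was lower with miR-143 and with miR-150 than in the control in all 3 numbers. The part of these endothelial and fibroblast sums in the results was not tested. Of the leukocyte markers only CD14, CD68 and PTPRC reached 1 TPM in any library, and PTPRC was at most 1.55 TPM. Of the epithelial markers KRT5, KRT14 and CDH1 stayed under 1 TPM, whereas KRT18 reached 421 to 978 TPM. The epithelial sum, almost all of it KRT18, was 449 to 634 TPM in the control, 526 to 579 with miR-126, 731 to 952 with miR-143 and 902 to 1027 with miR-150, and its part in the results for miR-143 and miR-150 was not tested. The leukocyte sum was 30.6 to 49.2 TPM in the control, 51.01 to 70.2 with miR-126, 43.3 to 62.9 with miR-143 and 27.8 to 59.6 with miR-150, and its part in the results was not tested either. The libraries of miR-143 replicate 4 and miR-150 replicate 4 stood apart: the Spearman correlation across 13656 genes between transcript length and a gene's deviation from its mean was -0.37 and -0.50 there. The other 10 libraries had values from -0.02 to 0.27. Longer transcripts were therefore relatively low in these libraries. Most calls of members that rest on them, and the group-only pathway calls against the control, are also given without both. Pathway and interferon results between mimics are given only with them.

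The members differed in level and in how far they varied. On the TPM scale, which is per length, ICAM1 was highest with a mean of 77.8 over the 12 libraries, followed by RELA with 72.5 and NFKBIA with 72.3, and the spread of these 3 overlapped. NFKB1 followed at 26.3, then NFKBIB at 18.01, NFKB2 at 16.4 and NFKBIE at 14.3, and the ranges of these 4 overlapped. TNFAIP3 (8.28), RELB (6.19) and REL (4.34) were lowest. RELA, the subunit with the main activation domain, was the most even member: its highest library was 1.48 times its lowest. The same ratio was 1.94 for NFKBIA, 5.36 for ICAM1 and 15.1 for TNFAIP3.

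**Figure D1:**
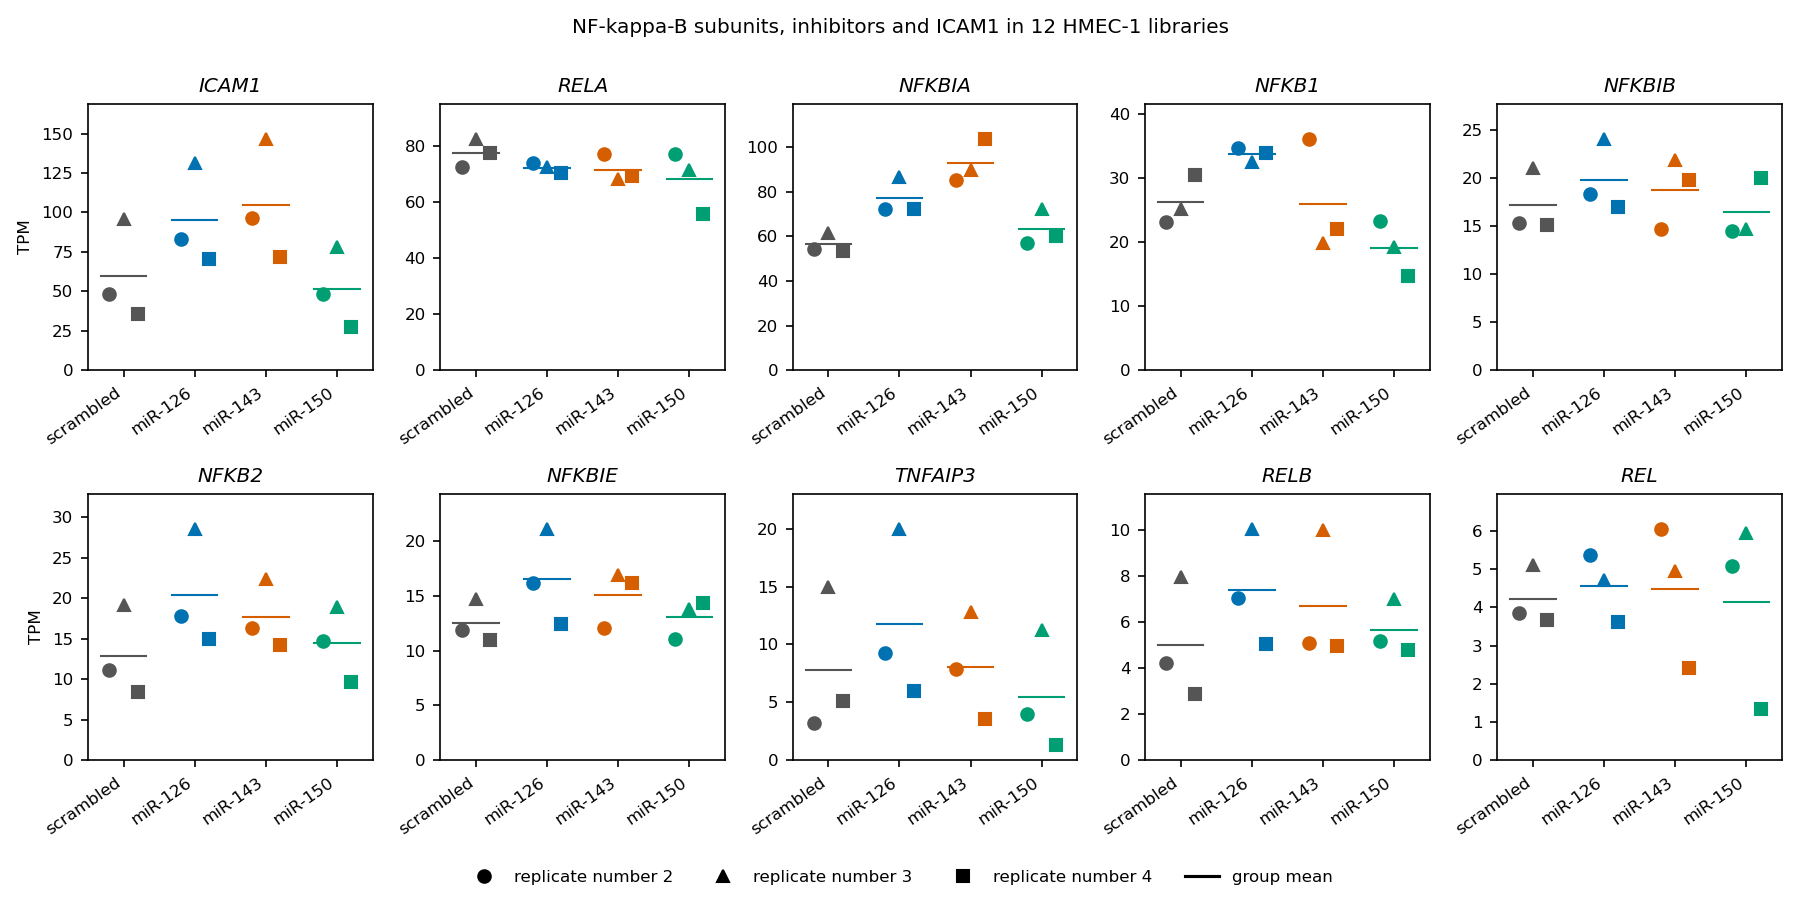
TPM of the 10 genes in each of the 12 libraries, one panel per gene with its own axis from 0, points shaped by replicate number and coloured by group, with a line at the group mean. ICAM1, NFKB2, RELB and TNFAIP3 are highest in the library numbered 3 of every group, NFKBIA is above all controls in all 6 libraries of miR-126 and miR-143, and RELA varies little.

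Among the subunits, none passed the test against the control when the group was the only term of the model. The test was limma's moderated linear model on log2(TPM + 1), two-sided, with p-values adjusted by Benjamini-Hochberg over all 13750 genes and a threshold of 0.05. By this test 702 genes (5.11%) differed between miR-126 and the control, 457 (3.32%) between miR-143 and the control, and 456 (3.32%) between miR-150 and the control. The scale with a pseudocount of 1 understates the change of low genes such as REL and RELB. In bulk RNA, fewer cells with a transcript and less of it per cell cannot be told apart.

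NFKB1 (ENSG00000109320, chromosome 4, 102501329 to 102617302) encodes the precursor p105, which is processed to the DNA-binding subunit p50. In libraries 2, 3 and 4 it measured 23.2, 25.2 and 30.5 TPM in the control, 34.6, 32.5 and 33.9 with miR-126, 36.1, 19.8 and 22.1 with miR-143, and 23.3, 19.3 and 14.7 with miR-150. All miR-126 libraries lay above all controls and above all miR-150 libraries, and the miR-143 libraries ranged from 19.8 TPM to the highest value of all, in library 2. The mean was 33.7 ± 1.07 TPM with miR-126, 26.3 ± 3.78 in the control and 19.1 ± 4.28 with miR-150 (SD, n = 3 each). The log2 fold change was 0.36 (SE 0.22, limma adjusted p = 0.433) with miR-126, and with miR-150 it was -0.45 (SE 0.22, limma adjusted p = 0.331), both against the control. The difference between miR-126 and miR-150 was 0.81 (SE 0.22) and did not pass (limma adjusted p = 0.067). The lowest NFKB1 value was in miR-150 replicate 4, a library that stood apart. Without both such libraries that difference was 0.64 (limma adjusted p = 0.144), and miR-150 against the control gave -0.29 (limma adjusted p = 0.569).

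NFKB2 (ENSG00000077150, chromosome 10, 102394110 to 102402529) encodes p100, the precursor of p52 in the non-canonical branch of the pathway. It measured 11.1, 19.1 and 8.45 TPM in the control, 17.8, 28.6 and 15.0 with miR-126, 16.3, 22.4 and 14.2 with miR-143, and 14.7, 19.0 and 9.71 with miR-150. The library numbered 3 was highest in every group, so the groups overlapped, but each miR-126 and each miR-143 library was above the control library of its own number. The log2 differences between same-numbered libraries were 0.63, 0.56 and 0.76 with miR-126. With miR-143 they were 0.51, 0.22 and 0.68, and with miR-150 0.37, -0.01 and 0.18. With the group alone NFKB2 did not pass for miR-126 (log2 fold change 0.65, SE 0.33, limma adjusted p = 0.315).

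The replicate number can also enter the model as a block, which compares libraries of the same number. Deviations of same-numbered libraries from their group means correlated above 0.1 for every number in miR-126 against the control and in each pair of mimics, and blocked values are given for those 4 comparisons. For miR-143 and miR-150 against the control this rule was not met. Same-number differences and counts in those 2 comparisons, here and below, describe the values and are no evidence of pairing. The block was fitted over all 12 libraries, with 1 spread per gene. Blocked p-values in the 4 comparisons therefore also rest on a number effect that the control shares with miR-143 and miR-150, where the rule was not met. Deviations of the 3 libraries of a group cancel, so the correlations for the 3 numbers are not separate checks. With the block NFKB2 rose by 0.65 with miR-126 against the control (SE 0.12, limma adjusted p = 0.00727), higher in 3 of 3 numbers, where 2331 of all genes (17.0%) passed. It was also 0.47 higher with miR-126 than with miR-150 (SE 0.12, limma adjusted p = 0.0286), where 2599 genes (18.9%) passed. Without the 2 libraries that stood apart the latter was 0.44 (blocked limma adjusted p = 0.0405).

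RELB (ENSG00000104856, chromosome 19, 45001430 to 45038198), the usual partner of p52, shared with NFKB2 the order of the libraries within each group. It measured 4.25, 7.97 and 2.86 TPM in the control, 7.06, 10.1 and 5.04 with miR-126, 5.09, 10.01 and 4.95 with miR-143, and 5.18, 7.02 and 4.79 with miR-150. Library 3 was again highest in each group and all groups overlapped. For miR-126 against the control the log2 fold change was 0.52, and it missed the threshold also with the block (SE 0.16, limma adjusted p = 0.0552). Without the 2 libraries that stood apart, neither of which belongs to these groups, the blocked fit called it (limma adjusted p = 0.0212).

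RELA (ENSG00000173039, chromosome 11, 65653596 to 65663094) encodes p65, the partner of p50 in the commonest dimer. It measured 72.6, 82.8 and 77.7 TPM in the control, 74.0, 72.5 and 70.5 with miR-126, 77.5, 68.3 and 69.5 with miR-143, and 77.2, 71.7 and 55.8 with miR-150. The groups overlapped, and the lowest value was in miR-150 replicate 4, a library low in long transcripts. The log2 fold changes against the control were -0.10, -0.11 and -0.20, each with SE 0.13, and the 95% intervals reached from -0.38 to 0.18, from -0.39 to 0.16 and from -0.47 to 0.08.

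REL (ENSG00000162924, chromosome 2, 60881521 to 60931610), the c-Rel subunit best known from lymphocytes, was the lowest member. It measured 3.86, 5.11 and 3.66 TPM in the control, 5.37, 4.72 and 3.61 with miR-126, 6.06, 4.95 and 2.41 with miR-143, and 5.09, 5.95 and 1.35 with miR-150. The 2 lowest values were in the libraries that stood apart, and 92.7% of the REL signal came from a transcript of 11255 bases, the sort that is low in them. Their part in the values of REL was not tested. With miR-143, whose seed site REL-201 holds at 2 places, the log2 fold change of REL was 0.02 (SE 0.39, limma adjusted p = 0.991).

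The inhibitors gave the one member that passed with the group alone. NFKBIA (ENSG00000100906, chromosome 14, 35401511 to 35404749) encodes I-kappa-B alpha, the inhibitor that NF-kappa-B resynthesises fastest after a signal. It measured 54.1, 61.5 and 53.4 TPM in the control, 72.3, 86.7 and 72.3 with miR-126, 85.2, 89.6 and 104 with miR-143, and 56.8, 72.4 and 60.1 with miR-150. Every library of miR-126 and of miR-143 was above every control, and the miR-150 libraries overlapped the controls. The mean was 92.8 ± 9.66 TPM with miR-143 and 56.3 ± 4.48 TPM in the control (SD, n = 3 each). NFKBIA rose by 0.71 on the log2 scale with miR-143 (SE 0.13, 95% interval 0.42 to 0.996, limma adjusted p = 0.0141), higher in 3 of 3 numbers. This was 1 of 10 members, beside 3.32% of all genes.

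The call for NFKBIA depended on single libraries. It was lost without control replicate 2 (limma adjusted p = 0.0807), control replicate 4 (0.0809) or miR-143 replicate 4 (0.0705), while the log2 fold change stayed between 0.63 and 0.77 in fits that left out 1 library. Replicate 4 of miR-143 held the highest NFKBIA value and favours short transcripts, and NFKBIA-201, with 1558 bases, carried 88.2% of the NFKBIA signal. Without both libraries that stood apart NFKBIA still passed (0.63, limma adjusted p = 0.0282).

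For miR-126 the mean of NFKBIA was 77.1 ± 8.31 TPM (SD, n = 3), and the log2 fold change against the control was 0.44 (SE 0.13), which missed the threshold with the group alone (limma adjusted p = 0.0792). It passed with the block (limma adjusted p = 0.0163), with differences of 0.41, 0.49 and 0.43 in libraries 2, 3 and 4. Between miR-143 and miR-150 the difference was 0.55 (SE 0.13, limma adjusted p = 0.0573), and no miR-143 library overlapped one of miR-150. Between miR-126 and miR-150 NFKBIA passed only in the blocked fit without the 2 libraries that stood apart (0.30, limma adjusted p = 0.0372). For miR-143 against miR-150 the block gave a call (limma adjusted p = 0.0100), where 1340 genes (9.75%) passed, and without the same 2 libraries the difference was 0.44 (blocked limma adjusted p = 0.0142). Between miR-126 and miR-143 the difference was -0.26 and did not pass in either fit (limma adjusted p = 0.354, and 0.123 with the block). The 95% interval of that difference was -0.55 to 0.02.

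TNFAIP3 (ENSG00000118503, chromosome 6, 137867188 to 137883312) encodes A20, an enzyme that edits ubiquitin chains and ends the signal upstream of the kinase complex. It measured 3.22, 14.9 and 5.14 TPM in the control, 9.27, 20.0 and 6.01 with miR-126, 7.90, 12.8 and 3.55 with miR-143, and 3.96, 11.2 and 1.32 with miR-150. Library 3 was highest in each group by a wide margin, and all groups overlapped. Each miR-126 library was above the miR-150 library of its number, by 1.05, 0.78 and 1.59 on the log2 scale. This difference, 1.14, passed with the block (SE 0.29, limma adjusted p = 0.0265) but not with the group alone (SE 0.67, limma adjusted p = 0.337), and it was 0.81 without the 2 libraries that stood apart (blocked limma adjusted p = 0.0739).

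NFKBIB (ENSG00000104825, chromosome 19, 38899700 to 38908893) encodes I-kappa-B beta. It measured 15.3, 21.0 and 15.1 TPM in the control, 18.3, 24.0 and 17.0 with miR-126, 14.7, 21.8 and 19.8 with miR-143, and 14.5, 14.7 and 20.0 with miR-150. The groups overlapped and NFKBIB passed in no comparison over all 12 libraries, with or without the block in the 4 blocked ones. Without the 2 libraries that stood apart, the blocked difference between miR-126 and miR-150 was 0.49 and passed (limma adjusted p = 0.0359), against 0.26 with them. The table splits its signal equally over a second Ensembl gene with the same symbol, ENSG00000282905, and the sum was used. It also overlaps SIRT2 on the opposite strand, and whether reads were counted by strand is not given in the sources used here, so its level is uncertain.

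NFKBIE (ENSG00000146232, chromosome 6, 44258166 to 44265788) encodes I-kappa-B epsilon. It measured 11.9, 14.7 and 10.97 TPM in the control, 16.1, 21.1 and 12.4 with miR-126, 12.1, 16.9 and 16.2 with miR-143, and 11.05, 13.8 and 14.4 with miR-150. The groups overlapped, and the log2 fold change of 0.36 for miR-126 against the control did not pass (SE 0.21, limma adjusted p = 0.399). Without the 2 libraries that stood apart, NFKBIE passed in the blocked fit for miR-126 against the control (0.36, limma adjusted p = 0.0285) and against miR-150 (0.50, limma adjusted p = 0.0235), where the difference was 0.30 with them. The largest share of its signal, 52.4%, was assigned to NFKBIE-202, a transcript of 561 bases, and the remainder of the main transcripts to NFKBIE-201 and NFKBIE-204 in equal parts.

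ICAM1 (ENSG00000090339, chromosome 19, 10270835 to 10286615) measured 48.3, 95.7 and 35.6 TPM in the control, 83.4, 132 and 70.8 with miR-126, 96.3, 147 and 71.7 with miR-143, and 48.6, 77.9 and 27.4 with miR-150. Control library 3 was above miR-126 libraries 2 and 4, so the groups overlapped, yet within each number both mimics were above the control. The means were 59.9 ± 31.7 TPM in the control, 95.3 ± 32.1 with miR-126, 105 ± 38.3 with miR-143 and 51.3 ± 25.4 with miR-150 (SD, n = 3 each).

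With the group alone ICAM1 passed in no comparison, and its log2 fold changes against the control were 0.73 (limma adjusted p = 0.395), 0.86 (limma adjusted p = 0.352) and -0.22 (limma adjusted p = 0.840), each with SE 0.43. Same-numbered libraries differed by 0.78, 0.46 and 0.97 under miR-126 and by 0.98, 0.61 and 0.99 under miR-143, but by 0.01, -0.29 and -0.37 under miR-150. With the block ICAM1 rose by 0.73 with miR-126 against the control (SE 0.13, limma adjusted p = 0.00470). It was higher than with miR-150 by 0.95 with miR-126 (limma adjusted p = 0.00176) and by 1.08 with miR-143 (limma adjusted p = 0.00131), in 3 of 3 numbers each. Both passed also without the 2 libraries that stood apart, at 0.82 (blocked limma adjusted p = 0.00220) and 0.94 (0.00209). Between miR-126 and miR-143, where 1515 genes (11.0%) passed with the block, ICAM1 did not (-0.13, SE 0.13, limma adjusted p = 0.534).

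**Figure D2:**
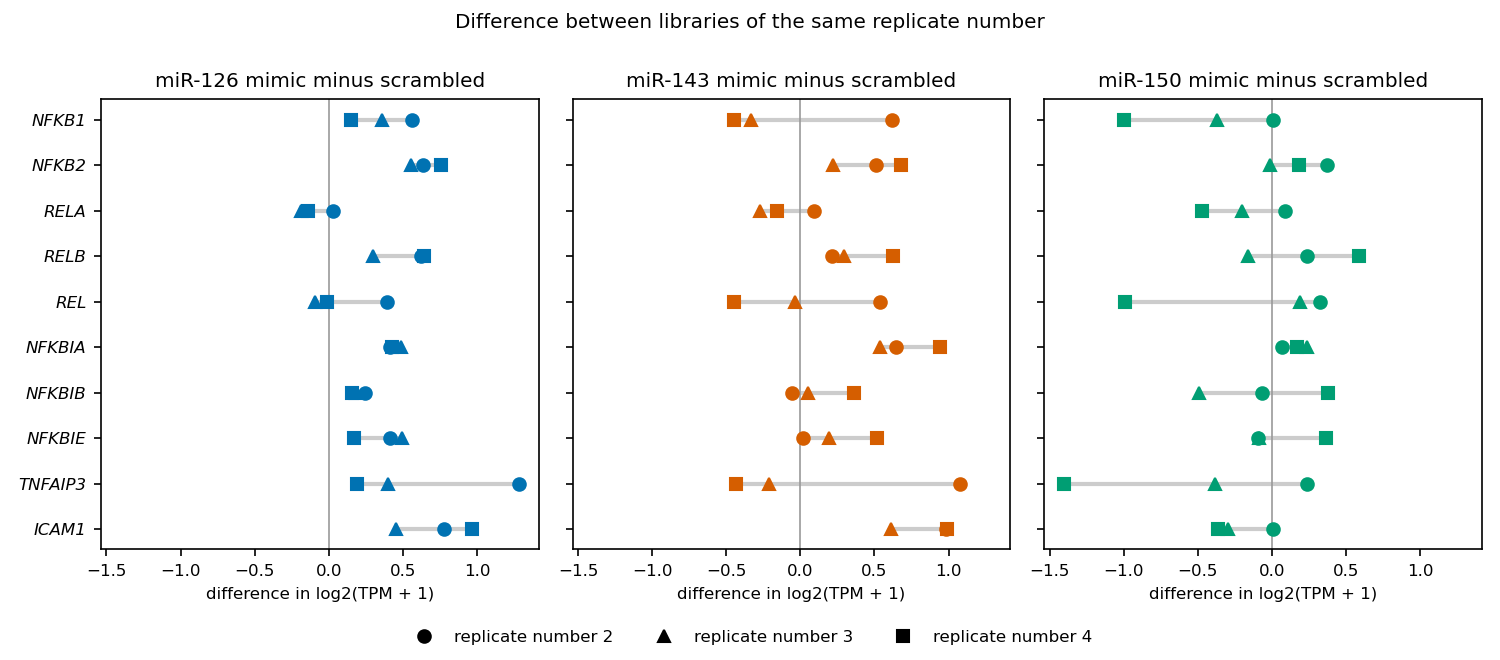
Difference in log2(TPM + 1) between each mimic library and the control library of the same number, for the 10 genes, with grey bars over the range of the 3 numbers. For miR-126 8 genes are above 0 in all 3 numbers, for miR-143 5 genes, and for miR-150 NFKBIA alone.

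**Figure D3:**
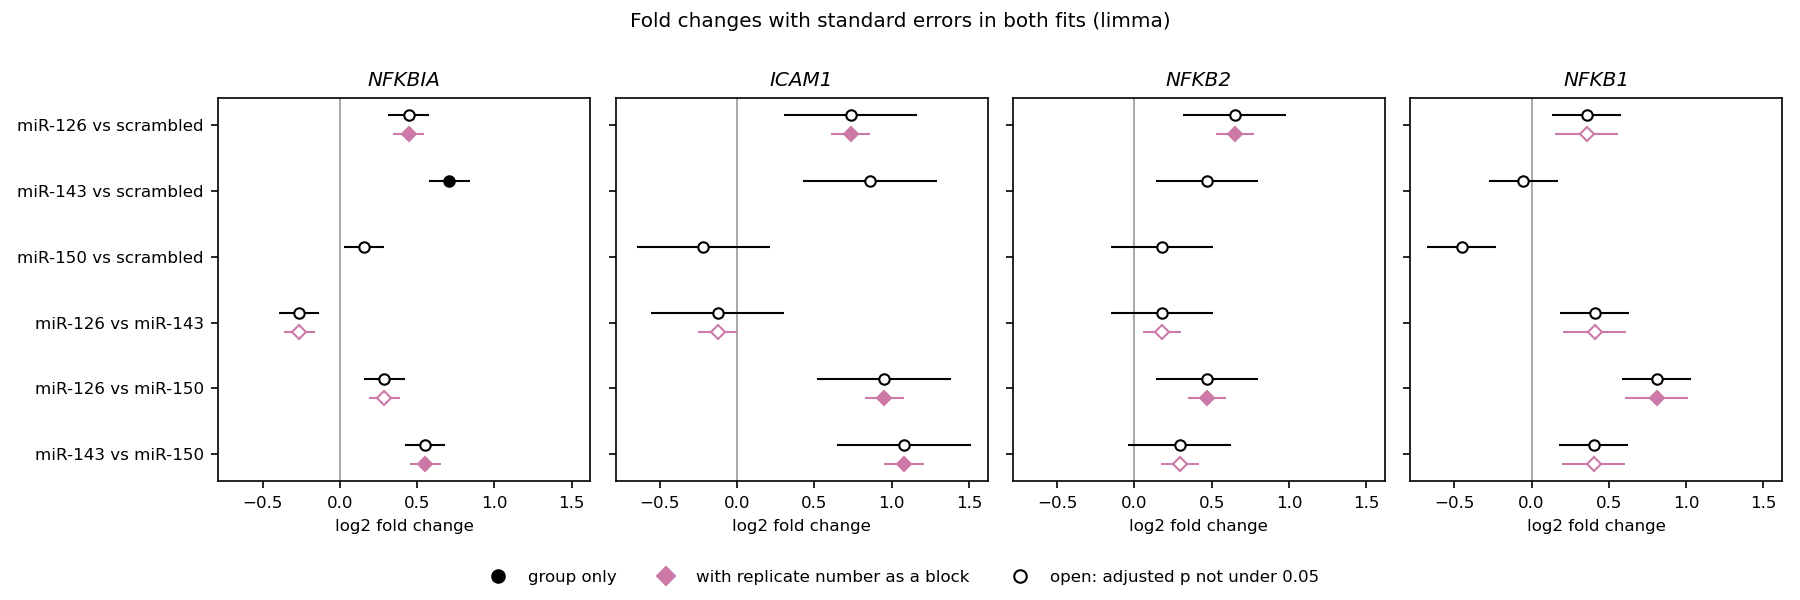
Log2 fold changes and standard errors of NFKBIA, ICAM1, NFKB2 and NFKB1 in the 6 comparisons, with the group as the only term (circles) and, for the 4 comparisons in which same-numbered libraries deviated together, with the replicate number as a block (diamonds). Filled symbols have an adjusted p under 0.05, and NFKBIA for miR-143 against the control is the only filled circle.

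Counted over the 10 members, the group-only fit called 0 for miR-126 against the control, 1 with miR-143 and 0 with miR-150. It called 0 between miR-126 and miR-143 (background 2.52%), 0 between miR-126 and miR-150 (3.91%) and 0 between miR-143 and miR-150 (2.19%). With the block it called 3 for miR-126 against the control (NFKB2, NFKBIA and ICAM1), beside 17.0% of all genes. Against miR-150 it called 4 with miR-126 (NFKB1, NFKB2, TNFAIP3 and ICAM1), beside 18.9% of all genes, and 2 with miR-143 (NFKBIA and ICAM1), beside 9.75%. Between miR-126 and miR-143 it called 0 (11.0%). NFKB1 was 0.81 higher with miR-126 than with miR-150 (blocked limma adjusted p = 0.0253), and 0.59 higher without the 2 libraries that stood apart, where it missed the threshold (0.0651). The called members were higher with miR-126 or miR-143 than in the group they were set against. Called genes as a whole also went mostly that way. With the block, 1629 of all genes were called higher and 702 lower for miR-126 against the control. Against miR-150 the counts were 2178 and 421 with miR-126, and 971 and 369 with miR-143. By the group alone they were 253 and 204 for miR-143 against the control. At an unadjusted p under 0.05 the group-only fit had 1 member for miR-126 against the control (NFKBIA, beside 19.4% of all genes), 1 with miR-143 (NFKBIA, 16.8%) and 0 with miR-150 (17.4%). It had 0 between miR-126 and miR-143 (16.0%), and against miR-150 it had 2 with miR-126 (NFKB1 and ICAM1, 21.6%) and 2 with miR-143 (NFKBIA and ICAM1, 14.2%). Between miR-126 and miR-143 the blocked fit had 1 (NFKBIA, 28.6%). RELA, REL, RELB, NFKBIB and NFKBIE were called in none of these fits over all 12 libraries.

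Groups that do not overlap were counted in the same way. They were found for NFKB1 and NFKBIA between miR-126 and the control, where 34.1% of all genes did not overlap, and for NFKBIA between miR-143 and the control (25.3%). No member was separated between miR-150 and the control (21.5%), NFKB1 was between miR-126 and miR-150 (25.9%), and NFKBIA was between miR-143 and miR-150 (15.1%). Between miR-126 and miR-143 the count was 0, and the share of all genes was not computed there. The other counts of 2, 1, 0, 1 and 1 of 10 were not above the background of all genes. With 10 members they are too small to be read as a difference from it.

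The median log2 fold change of the members was 0.40 for miR-126 against the control (0.10 over all genes). It was 0.19 with miR-143 (-0.04 over all genes) and -0.11 with miR-150 (-0.11). For miR-126, 8 members were above the control in all 3 numbers, every one but RELA and REL, while 41.2% of all genes were. For miR-143 it was 5 members (22.7% of all genes) and for miR-150 1 member (15.1%). The 3 comparisons share the same control libraries and are not independent.

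Several members also varied with the replicate number. NFKB2, RELB, TNFAIP3 and ICAM1 were highest in library 3 in all 4 groups, which held for 18.9% of all genes, whereas NFKB1 was highest there in none and RELA in 1 group. The level of 34 interferon-stimulated genes moved the same way. Their mean on the log2(TPM + 1) scale in libraries 2, 3 and 4 was 3.31, 5.26 and 3.17 in the control, 5.43, 7.37 and 4.97 with miR-126, 4.57, 6.56 and 4.26 with miR-143, and 3.59, 5.58 and 3.24 with miR-150. Library 3 was highest in each group, and miR-126 and then miR-143 were highest within each number. With the group alone 1 of the 34 interferon genes was called higher for miR-126 against the control, and 0 against miR-150 with miR-126 or with miR-143. With the block 33 were called higher for miR-126 against the control, beside 17.0% of all genes called in either direction. Set against miR-150, 32 were higher with miR-126 (18.9% of all genes in either direction) and 24 with miR-143 (9.75%). NFKB2 and ICAM1 were above the control of the same number with miR-126 and with miR-143, as the interferon mean was. The orders differed elsewhere. ICAM1 and NFKBIA were lower with miR-126 than with miR-143 in all 3 numbers, as were 14.5% of all genes, while the interferon mean was higher with miR-126. For ICAM1 these log2 differences were small, at -0.21, -0.16 and -0.02 in libraries 2, 3 and 4. ICAM1 was also lower with miR-150 than in the control in libraries 3 and 4, where the interferon mean was higher, in library 4 only by 3.24 against 3.17. Library 4 of miR-150 was among the 2 that stood apart. Without both, the log2 fold change of ICAM1 for miR-150 against the control was 0.16 with the group alone and -0.08 with the block. The part of the interferon genes in the results for the members was not tested.

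**Figure D4:**
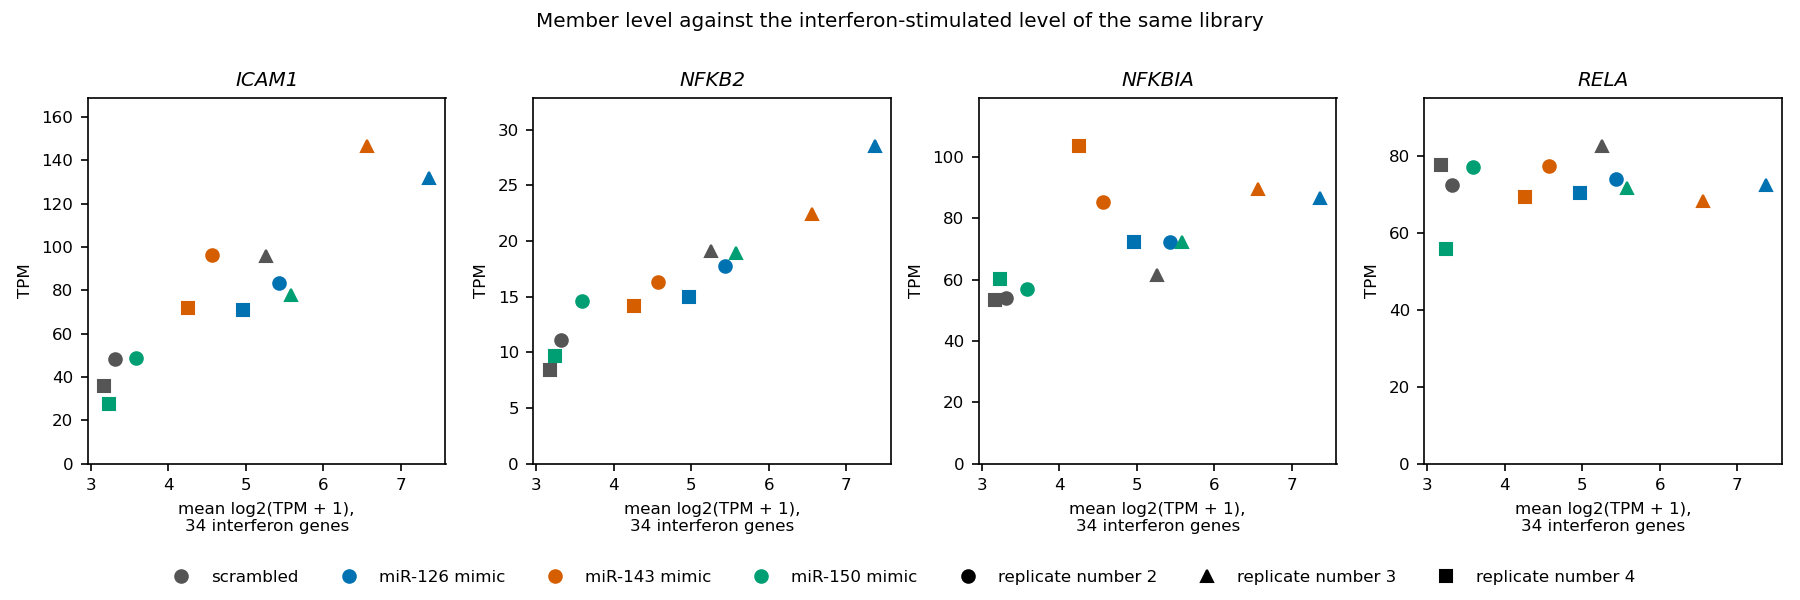
TPM of ICAM1, NFKB2, NFKBIA and RELA against the mean log2(TPM + 1) of 34 interferon-stimulated genes in the same library, one point per library. ICAM1 and NFKB2 are lowest in the libraries with an interferon mean near 3 and highest in miR-126 and miR-143 libraries 3, while RELA stays between 55.8 and 82.8 TPM.

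The signal of most members came from 1 or 2 annotated transcripts. ICAM1-201 held 91.2% of the ICAM1 signal over the 12 libraries, and ICAM1-202, a shorter transcript, 8.5%. ICAM1-202 was listed at 0 in miR-143 replicate 4 and at 14.9 TPM in miR-126 replicate 3. RELA-202 held 71.1% of RELA, NFKB1-205 71.8% and NFKB1-201 15.9% of NFKB1, and NFKB2-201 54.8% and NFKB2-203 21.8% of NFKB2. TNFAIP3-201 held 60.7% of TNFAIP3, and RELB-207 and RELB-202 held 57.0% and 23.6% of RELB. NFKB1-205 alone repeated the pattern of the gene, at 18.2, 17.2 and 17.8 TPM in the control and 24.6, 23.7 and 24.7 with miR-126. How kallisto divides reads among similar transcripts carries its own error, which a TPM table does not give. GENCODE 29 places antisense genes over ICAM1, TNFAIP3 and RELA, and a gene's reads could not be separated from theirs without strand.

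The genes most like 3 of the members were listed by Pearson's r of log2(TPM + 1) over the 12 libraries, which share their groups and numbers. For ICAM1 these were TUSC3, SRP54 and ERP44 (r = 0.97 each), HIST1H2BC and PMAIP1 (0.96 each). For NFKBIA they were C1orf216 (0.97), OSTF1 (0.94), PRR29 and NRBP1 (0.93 each) and RAB5IF (0.92). For NFKB1 they were HTR1B (0.96), TAOK2, CLDND1, IP6K1 and CCDC90B (0.95 each). With 13750 genes and 12 libraries such values are a description only.

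The remaining genes of the pathway were read from a list of 99 receptors, adaptors, kinases, further inhibitors and targets, of which 84 were tested. With the group alone 1 was higher and 3 were lower with miR-126 than in the control, against 0 and 2 with miR-143 and 0 and 5 with miR-150. Beside these, 5.11%, 3.32% and 3.32% of all genes passed in either direction. Of all genes, 464 were higher and 238 lower with miR-126, 253 and 204 with miR-143, and 149 and 307 with miR-150. The median log2 fold change of the 84 was 0.14, 0.07 and -0.16, against 0.10, -0.04 and -0.11 over all genes. With the block 12 were higher and 6 lower for miR-126 against the control, beside 1629 and 702 of all genes (17.0%). Set against miR-150, 4 were higher and 0 lower with miR-126 by the group alone, beside 427 and 110 of all genes (3.91%). With the block these counts were 25 and 2, beside 2178 and 421 (18.9%). With miR-143 against miR-150 the counts were 3 and 0 by the group alone, beside 218 and 83 of all genes (2.19%). With the block they were 15 and 2, beside 971 and 369 (9.75%). Between miR-126 and miR-143 they were 1 and 2 by the group alone, beside 201 and 145 of all genes (2.52%). With the block they were 6 and 4, beside 1041 and 474 (11.0%). Of the calls against the control described next, with the group alone and JAM3 included, those of BIRC2 and SPATA2 held in all 12 fits that left out 1 library. The other 10 passed in 2 (CD44) to 8 of the 12 fits, each was lost without control replicate 4, and all but that of JAM3 were lost without control replicate 2. Without the 2 libraries that stood apart, 5 of them missed the threshold while their log2 fold changes stayed within 1.5 times. PLAU with miR-143 was then at -0.78 (limma adjusted p = 0.0616). With miR-150 PLAU was at -0.71 (0.095), TNFRSF12A at -0.90 (0.0616), CCL2 at -0.82 (0.0554) and CD44 at -1.03 (0.114).

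Of 13 tested receptors, 1 fell with miR-150 and 0 passed with the other mimics against the control by limma. At an unadjusted p under 0.05 there was 1 with each mimic. These were TLR3 with miR-126 (beside 19.4% of all genes), TLR4 with miR-143 (16.8%) and TNFRSF12A with miR-150 (17.4%). TLR3 and TLR4 were named after their values were seen. TLR3, a sensor of double-stranded RNA, measured 15.7 ± 2.42 TPM with miR-126, 6.62 ± 1.10 in the control and 5.15 ± 2.27 with miR-150 (SD, n = 3 each). For miR-126 against the control it missed the threshold with the group alone (1.13, limma adjusted p = 0.0553) and passed with the block (limma adjusted p = 0.0131), and it was higher than with miR-150 with the group alone (1.49, limma adjusted p = 0.0217). TNFRSF12A, the receptor of the cytokine TWEAK, measured 80.8 ± 17.6 TPM with miR-150 and 160 ± 19.7 in the control (SD, n = 3 each; log2 fold change -0.99, limma adjusted p = 0.0199). TNFRSF1A, the main TNF receptor, was abundant and near level, at 226 ± 47.9 TPM in the control, 236 ± 47.1 with miR-126, 225 ± 30.8 with miR-143 and 219 ± 64.3 with miR-150 (SD, n = 3 each). IL1R1, the interleukin 1 receptor, lay between 0.931 and 6.07 TPM and did not pass with the group alone. With the block it was higher with miR-126 than with miR-150 (0.67, limma adjusted p = 0.0467).

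Of 21 adaptors, BIRC2, a ubiquitin ligase at the TNF receptor, fell with miR-126 by 0.67 on the log2 scale (limma adjusted p = 0.0088), from 36.9 ± 0.833 to 22.9 ± 1.36 TPM (SD, n = 3 each). IRAK2, a kinase-like adaptor of interleukin 1 and Toll-like receptors, fell with miR-150 by 1.20 (limma adjusted p = 0.0198), from 8.73 ± 2.16 to 3.27 ± 1.10 TPM (SD, n = 3 each). It was also higher with miR-126 (1.76, limma adjusted p = 0.00326) and with miR-143 (1.43, limma adjusted p = 0.0102) than with miR-150. For miR-126 against the control IRAK2 passed with the block (0.56, limma adjusted p = 0.0167) and not with the group alone (0.224).

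None of the 12 kinases that act on or near the inhibitors passed against the control by limma with the group alone. At an unadjusted p under 0.05 there were 2 with miR-126 (MAP3K7 and IKBKE), 0 with miR-143 and 1 with miR-150 (IKBKG), beside 19.4%, 16.8% and 17.4% of all genes. CHUK, IKBKB and IKBKG, the catalytic and scaffold subunits of the I-kappa-B kinase, measured 40.7 ± 3.83, 37.3 ± 2.12 and 33.2 ± 2.57 TPM in the control (SD, n = 3 each). Their log2 fold changes against the control lay between -0.11 and 0.18 except for IKBKG with miR-150, at -0.44 (SE 0.14, limma adjusted p = 0.118). IKBKG was higher with miR-143 than with miR-150 (0.62, limma adjusted p = 0.0425), and with miR-126 than with miR-150 in the blocked fit (0.42, limma adjusted p = 0.0432).

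Among 15 further inhibitors 1 passed against the control. SPATA2, which recruits the deubiquitinase CYLD, fell with miR-143 by 1.12 on the log2 scale (limma adjusted p = 0.00635), from 10.1 ± 0.985 to 4.11 ± 0.690 TPM (SD, n = 3 each). CYLD itself measured 26.8 ± 2.92 TPM in the control and 25.3 ± 6.57 with miR-143, and TNIP1, a partner of A20, 78.5 ± 13.1 and 77.1 ± 17.7 (SD, n = 3 each). With the block TNIP1 was higher with miR-126 than with miR-150 (0.38, limma adjusted p = 0.0221).

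Of 23 tested targets, IRF1, an interferon-regulated transcription factor, rose with miR-126 by 0.94 (limma adjusted p = 0.0346), from 34.2 ± 9.33 to 65.9 ± 12.3 TPM. CCL2, a monocyte chemokine, fell with miR-126 by 0.75 (limma adjusted p = 0.0336) and with miR-150 by 0.86 (limma adjusted p = 0.0226), at 54.7 ± 6.06 TPM in the control, 32.5 ± 6.41 with miR-126 and 29.7 ± 2.90 with miR-150. F3, tissue factor, fell with miR-126 by 0.85 (limma adjusted p = 0.0319), from 2.79 ± 0.472 to 1.10 ± 0.255 TPM. PLAU, the urokinase-type plasminogen activator, fell with miR-143 by 0.87 (limma adjusted p = 0.0315) and with miR-150 by 0.81 (limma adjusted p = 0.0417), and CD44, a hyaluronan receptor, fell with miR-150 by 1.26 (limma adjusted p = 0.0492). Of the targets named here IRF1, PLAU and CD44 hold the miR-143 seed site, and CD44 did not pass with miR-143 (-0.69, limma adjusted p = 0.283). The site was in 15 of 91 genes of the pathway and adhesion lists, and in 14.4% of all tested genes with a 3' UTR. SPATA2, which fell with miR-143, holds no such site.

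CXCL8, the neutrophil chemokine, measured 5.60 ± 4.45 TPM in the control, 12.8 ± 3.07 with miR-126, 13.8 ± 3.02 with miR-143 and 8.89 ± 5.41 with miR-150. For miR-126 against the control it missed the threshold with the group alone (1.24, limma adjusted p = 0.146) and passed with the block (limma adjusted p = 0.0072). IL6 was at 19.2 ± 10.8 TPM in the control and 37.2 ± 6.89 with miR-150 and did not pass (1.04, limma adjusted p = 0.322). With the block IL6 was lower with miR-126 than with miR-150 (-1.30, limma adjusted p = 0.00387), where ICAM1 was higher. In the blocked comparison of miR-126 with the control, 1629 of all 13750 genes were higher and 702 were lower, 17.0% in either direction. Of the 23 targets 7 were higher, IRF1 and CXCL8 among them, and 4 were lower. The lower ones were CCL2 (-0.75, limma adjusted p = 0.00213), F3 (-0.85, limma adjusted p = 0.0142), PLAU (-0.59, limma adjusted p = 0.000571) and CD44 (-0.69, limma adjusted p = 0.00967).

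Of the 12 other endothelial adhesion genes listed, 7 were tested. VCAM1 and SELE, which rise with ICAM1 in cytokine-treated endothelium, were too low to be tested: VCAM1 measured 0.489 ± 0.121 TPM in the control and 0.260 ± 0.108 with miR-126, and SELE was listed at 0 in all libraries of miR-143 and miR-150. ICAM2, which endothelium makes without stimulation, measured 200.2 ± 18.7 TPM in the control, 235 ± 15.9 with miR-126 and 275 ± 32.6 with miR-143 and did not pass (0.23 and 0.45, limma adjusted p = 0.405 and 0.110). PECAM1 measured 541 ± 138 TPM in the control and 431 ± 92.1 with miR-126 and did not pass (-0.32, limma adjusted p = 0.730). JAM3, a junctional adhesion molecule, was the 1 of 7 tested relatives that passed against the control, where it fell with miR-126 by 0.99 (limma adjusted p = 0.0189), from 41.5 ± 6.34 to 20.4 ± 3.02 TPM (SD, n = 3 each).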

How the data were processed

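The values are TPM that the authors made with kallisto, per the submitters' processing notes, and deposited for 187626 transcripts in 12 libraries. Those notes also name FastQC, sleuth and GRCh38 (hg38). Tool versions, transcript annotation, strand setting and filters were not given in the sources used here. The labels call the libraries miRNA libraries, but the table holds annotated transcripts. TPM hold no read totals, and a large change in abundant transcripts moves all others. All 12 columns were matched to samples by name (0 were left over).

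TPM were summed per symbol (171 transcripts had none). Genes that reached 1 TPM in 3 or more libraries were fitted with limma 3.58.1 (R 4.3.3) on log2(TPM + 1), group as the only term, all 12 libraries together, with trend. The fit was tested on simulated data. The members and lists were chosen with earlier results of these data known. Beyond the members, named genes are those of the pathway lists that passed against the control with the group alone, 14 fixed reference genes, the 5 genes most correlated with NFKB1, NFKBIA and ICAM1, and transcripts with at least 10% of a member's signal. Genes behind a count of unadjusted p-values were named after their values were seen.

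Replicate numbers recur in each group with no stated meaning. Deviations of same-numbered libraries (2, 3, 4) had correlations of 0.29, 0.63 and 0.40 between miR-126 and control libraries. They were 0.32, 0.66 and 0.37 between libraries of miR-126 and of miR-143, 0.29, 0.55 and 0.28 between miR-126 and miR-150 libraries, and 0.59, 0.63 and 0.74 where miR-143 met miR-150. The blocked fit is therefore given beside those results. Alternatives were a pseudocount of 0.1, no filter, median-of-ratios scaling, the block and leaving out each library. Leaving out the 2 libraries that stood apart was chosen after seeing the data. Positions and 3' UTRs are from GENCODE 29, promoters and microRNAs from RefSeq.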

Additional observations from a re-analysis of the deposited data

How the results depend on the processing

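With the group alone, the 60 log2 fold changes of the members kept their side of the threshold with a pseudocount of 0.1. They also kept it without the filter on low values and with median-of-ratios scaling, and their direction where called. NFKBIA for miR-143 against the control was the only call among them. These settings were not run with the block, so the blocked calls were not checked against them. Median-of-ratios scaling moved the median of all genes by -0.14 for miR-126 against miR-143, and by 0.12 for miR-150 against the control. For miR-126 against miR-150, where that median was 0.22, it moved by -0.22, and elsewhere by under 0.1. NFKBIA for miR-143 against the control was called in 9 of 12 fits that left out 1 library. In such fits NFKB1 passed for miR-126 against miR-150 without miR-143 replicate 2 (adjusted p = 0.0362) and NFKBIA for miR-143 against miR-150 without miR-150 replicate 3 (0.0359). Members past the threshold ranged from 0 to 1 for miR-143 against the control, miR-126 against miR-150 and miR-143 against miR-150. Genes past it ranged from 214 to 1368 for miR-126 against the control, 139 to 975 for miR-143 against the control, 125 to 554 for miR-150 against the control, 77 to 808 for miR-126 against miR-143, 125 to 719 for miR-126 against miR-150, and 127 to 354 for miR-143 against miR-150. The cause was not tested.

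With the replicate number as a block, 2331 genes and 3 members passed for miR-126 against the control, 1515 genes for miR-126 against miR-143, 2599 genes and 4 members for miR-126 against miR-150, and 1340 genes and 2 members for miR-143 against miR-150. For miR-143 against the control (correlations 0.04, 0.65 and 0.17) and miR-150 against the control (0.07, 0.60 and 0.07) the numbers do not pair the libraries by the rule used. There the block gave 1775 genes and 3 members (NFKB2, adjusted p = 0.0354; NFKBIA, 0.0024; ICAM1, 0.0028), and 1694 genes and 0 members.

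Without the 2 libraries that stood apart, 1840 genes and 1 member (NFKBIA, adjusted p = 0.0377) passed for miR-126 against the control, 710 genes for miR-143 against the control and 581 genes for miR-126 against miR-143. With the block as well, in the order of comparisons miR-126, miR-143 and miR-150 against the control, miR-126 against miR-143, miR-126 against miR-150 and miR-143 against miR-150, the genes were 4394, 2302, 1765, 2091, 2455 and 1504. The members were then 5 for miR-126 against the control, 2 for miR-143 against the control, 5 for miR-126 against miR-150 and 2 for miR-143 against miR-150. RELB (adjusted p = 0.0212) and NFKBIE (0.0285) were among them for miR-126 against the control, and NFKBIA (0.0372), NFKBIB (0.0359) and NFKBIE (0.0235) for miR-126 against miR-150, where NFKB1 and TNFAIP3 were not. With 3 libraries a group and no read totals, small differences in REL, RELB and TNFAIP3 could not be resolved.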
